A study of Mus musculus with 6 samples.

Results

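Dual specificity phosphatases and Sprouty proteins are feedback inhibitors of the mitogen-activated protein kinase (MAPK) cascades, and 10 of their genes were followed here in splenic CD4+ T cells sorted by surface Lrig1. The 10 genes were Dusp1, Dusp2, Dusp4, Dusp5, Dusp6, Dusp10, Dusp16, Spry1, Spry2 and Spred1. They were chosen by name, with earlier results of these data known, and all 10 were found among the 45777 genes of the deposited tables. Flow cytometry was used to sort CD4+Lrig1+ and CD4+Lrig1- T cells (Lrig1+ and Lrig1- cells below) out of the spleen of female C57BL/6 mice at 7 weeks of age, an inbred strain, with no treatment or engineered allele given in the labels for either group. Lrig1 is a transmembrane protein known as a negative regulator of receptor tyrosine kinases, and the study asked how the transcripts of the cells that carry it differ from those of the cells that do not. The labels list 3 samples per group, and 2 deposited tables, called set 1 and set 2 here, each hold 1 Lrig1+ and 1 Lrig1- library. These 4 libraries were analysed, and a further table whose columns do not give the group was not used here.

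In T cells, the T cell receptor and growth factor receptors activate Ras, which switches on a chain of kinases ending in ERK, and stress and cytokine signals activate the related kinases JNK and p38. Dual specificity phosphatases remove the phosphates from the activating threonine and tyrosine of these MAPKs and so switch them off, and several of them are themselves induced by the kinases they inactivate. Sprouty and Spred proteins act higher up, between the receptor and Raf, and many are also induced by ERK, which closes the feedback loop.

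The genes fell into 3 patterns. Dusp4 and Spry1 were far higher in Lrig1+ cells in both sets, and Dusp1 was about 2-fold higher. With the set as a term in the fit, Dusp6 and Dusp16 were higher by smaller amounts and Dusp10 was lower. Dusp2, Dusp5, Spry2 and Spred1 were not called in that fit. Spry2 was lower in Lrig1+ cells in both sets, on few counts. It was the scarcest of the genes in each library but the Lrig1- library of set 2.

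Levels are given as TMM-normalised CPM, which are estimated counts scaled to the size and composition of each library. The libraries held 44865070 to 59977951 estimated counts on genes. The sets differed from each other more than the groups did: the median absolute log2 difference over genes was 0.264 between the groups in set 1 and 0.331 in set 2, against 0.755 between the sets in Lrig1+ and 0.778 in Lrig1- cells. The difference between groups was therefore tested with edgeR's quasi-likelihood test in 2 fits, one without covariates, since the study's methods name edgeR and give no covariate, and one with the set as a term (the table block). p-values were adjusted by Benjamini-Hochberg over the 16123 genes tested, and all 10 genes passed the filter on low counts. The edgeR fit without the block called 0.0% of all genes and none of the 10. Before adjustment, its p was under 0.05 for 674 genes with higher and 227 with lower levels in Lrig1+ cells. DESeq2's Wald test without the block did call genes at an adjusted p under 0.05: 260 higher, with Dusp4 and Spry1 among them, and 50 lower. In edgeR with the block, 14.6% of genes were called higher in Lrig1+ and 12.8% lower. Of the 10 genes, 5 were called higher (Dusp1, Dusp4, Dusp6, Dusp16 and Spry1) and 1 lower (Dusp10). That fit leaves 1 residual degree of freedom, against 2 without the block, and borrows the spread of other genes. Nothing in the labels says that the libraries came from separate animals, so these p-values measure a spread between libraries that may be technical. In the fit with the block, the difference between the sets is taken out of that spread.

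The sort and the cell type were checked first. Lrig1 itself stood at 221 CPM in Lrig1+ and 75.4 in Lrig1- cells of set 1, and at 129 and 36.7 in set 2, so that it was higher in the sorted group in both sets without being absent from the other. Cd4 (924 to 1100 CPM) and Cd3e (453 to 632 CPM) were high in all 4 libraries. The 6 regulatory T cell markers Foxp3, Il2ra, Ctla4, Ikzf2, Tnfrsf18 and Nrp1 summed to 2275 and 2021 CPM in the Lrig1+ libraries and to 230 and 165 in the Lrig1- libraries, and all 6 were higher with the block. The 4 naive T cell markers Ccr7, Lef1, Tcf7 and Il7r summed to 1950.1 and 2083 CPM in Lrig1+ against 3348 and 4304 in Lrig1- cells, and all 4 were lower with the block. Foxp3 stood at 589 and 615 CPM in the Lrig1+ libraries and at 48.9 and 30.7 in the Lrig1- libraries. The part of this difference in cell make-up in the results below was not tested, and in bulk libraries more cells of a type and more RNA per cell cannot be told apart.

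Markers of other cells were low beside the T cell genes. Their sums were higher in set 2 than in set 1, though hardly so for the dendritic cell markers. The summed level of 9 B cell markers was 88.7 and 68.6 CPM in Lrig1+ and Lrig1- cells of set 1 and 377 and 744 CPM in set 2, where the Lrig1- library held the most. Of these markers, 6 were lower in Lrig1+ cells in both sets. The other 3 were higher in set 1 and lower in set 2: Cd22 (32.8 and 16.2 CPM in set 1, 37.0 and 54.0 in set 2), Cd79b (13.5 and 6.85, 93.6 and 146) and Fcer2a (5.13 and 4.43, 21.5 and 49.5). The 10 myeloid markers summed to 53.5 and 70.1 CPM in set 1 and to 238 and 291 in set 2, in the same order. NK cell markers (5 genes) summed to 34.0, 40.3, 62.9 and 90.4 CPM in the same order of libraries, but not as one: Eomes was higher in Lrig1+ cells, at 24.1 and 4.198 CPM in set 1 and 41.3 and 9.18 in set 2, and Klrb1c, Klrd1, Klre1 and Ncr1 were lower in both sets, Klrb1c standing at 6.29 and 21.9 CPM in set 1 and 13.6 and 46.7 in set 2. Of the myeloid markers, 2 were likewise higher in Lrig1+ cells in both sets and 5 were lower in both. Csf1r was higher, at 13.2 and 6.39 CPM in set 1 and 65.9 and 32.2 in set 2. Cd14 was too, at 0.385 and 0.272 CPM in set 1 and 1.90 and 1.35 in set 2. Of the dendritic cell markers, 4 were lower in both sets. Xcr1 was higher, at 0.923 and 0.251 CPM in set 1 and 1.41 and 0.833 in set 2. The sums were, for dendritic cell markers (5 genes), 11.2, 52.7, 11.5 and 53.9 CPM, for the 2 CD8 genes 14.1, 19.5, 51.6 and 97.3, and for 6 erythroid markers 9.27, 9.34, 84.6 and 96.1. Each of these sums was lower in Lrig1+ cells in set 2, and none of the defining markers Ms4a1, Csf1r, Lyz2, Ncr1 and Cd8a was at 0 in any library. Their part in the results was not tested.

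Dusp4, on chromosome 8 of GRCm38 from 34807610 to 34819894, encodes a nuclear phosphatase that acts on ERK and JNK. It stood at 49.2 CPM in the Lrig1+ library and 2.88 in the Lrig1- library of set 1, and at 27.7 and 1.89 in set 2. Both Lrig1+ libraries lay far above both Lrig1- libraries, and the gap between groups was much wider than the gap between sets. The estimated counts behind these levels were 2557 and 138 in set 1 and 1589 and 102 in set 2, for ratios of 17.1 (exact 95% interval 14.4 to 20.4, counting error only) and 14.6 (12.0 to 18.1). The log2 fold change was 3.99 (SE 0.12) with the block (edgeR quasi-likelihood test, adjusted p = 4.804e-06), and 4.01 (SE 0.51) without it (adjusted p = 0.501, unadjusted p = 0.00137).

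Spry1, on chromosome 3 from 37639947 to 37644599, encodes a Sprouty protein that inhibits the Ras to ERK pathway downstream of receptor tyrosine kinases. Its levels were 44.2 CPM in Lrig1+ and 4.80 in Lrig1- cells of set 1, and 37.0 and 2.20 in set 2. The groups did not overlap, and the level in either Lrig1+ library was several times that in either Lrig1- library. Counts of 2300 and 230 in set 1 and 2125 and 119 in set 2 gave ratios of 9.21 (exact 95% interval 8.04 to 10.6, counting error only) and 16.8 (14.0 to 20.4). The log2 fold change was 3.60 (SE 0.20) with the block (adjusted p = 3.392e-05 in edgeR's quasi-likelihood test) and 3.54 (SE 0.53) without it (adjusted p = 0.522, unadjusted p = 0.00258).

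Dusp4 and Spry1 were the only members of the 10 that were at least 2-fold higher in Lrig1+ cells in both sets, a pattern that 7.37% of all genes tested showed, while 3.01% were at least 2-fold lower in both and none of the 10 was. These 2 genes were called in the fit without the block when either of 2 libraries was left out: without the Lrig1- library of set 1 (log2 fold changes 4.38 and 4.24) and without the Lrig1+ library of set 2 (4.36 and 3.66).

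Dusp1, on chromosome 17 from 26505591 to 26508472, encodes an immediate early nuclear phosphatase that acts on p38, JNK and ERK. It stood at 283 CPM in Lrig1+ and 143 in Lrig1- cells of set 1, and at 237 and 92.3 in set 2. The lower of the 2 Lrig1+ libraries was above the higher of the 2 Lrig1- libraries. The log2 ratio was 0.99 in set 1 and 1.36 in set 2, and the log2 fold change with the block was 1.17 (SE 0.10, adjusted p = 2.585e-04 in edgeR's quasi-likelihood test). Without the block it was 1.15 (SE 0.38, adjusted p = 0.827, unadjusted p = 0.0399). By GENCODE, 11 exonic bases of Dusp1 overlap Ergic1 on the opposite strand, and the counts of Ergic1 were 4556 and 1493 in Lrig1+ and Lrig1- cells of set 1 and 6484 and 2061 in set 2. The sources used here do not say whether strand was used in counting.

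**Figure D1:**
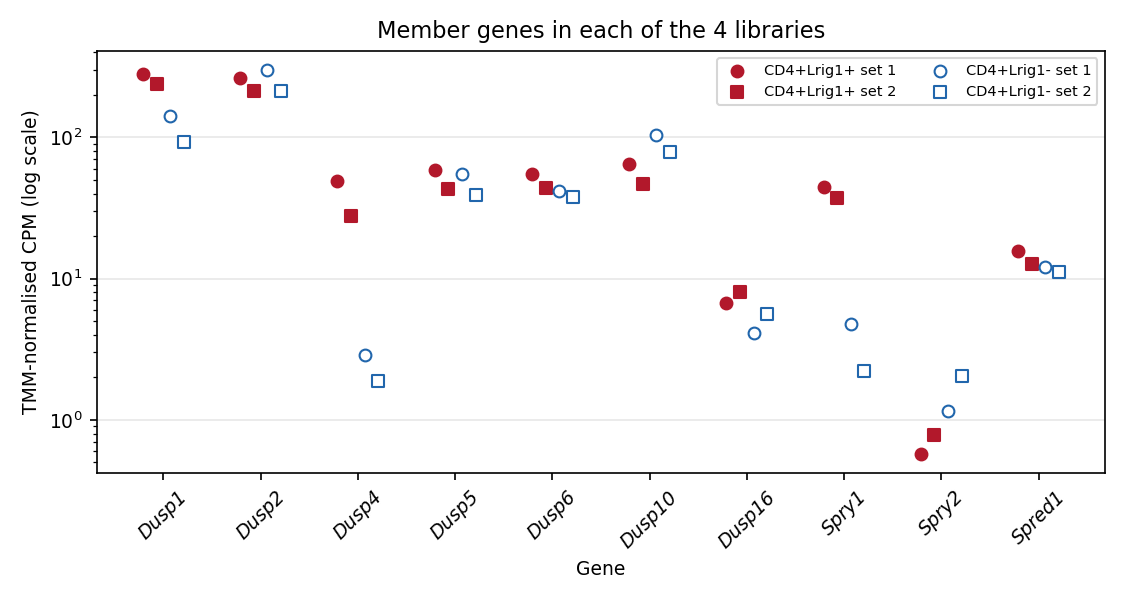
TMM-normalised CPM (log scale) of the 10 genes in each library, with filled red symbols for Lrig1+ and open blue symbols for Lrig1- cells, circles for set 1 and squares for set 2; 1 point is 1 library, with no averaging. Dusp4 (27.7 and 49.2 against 1.89 and 2.88 CPM) and Spry1 (37.0 and 44.2 against 2.20 and 4.80) are the genes with the widest gap, and the points of Dusp2 and Dusp5 interleave.

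Dusp2 and Dusp5, the other nuclear phosphatases, did not separate the groups. Dusp2, on chromosome 2 from 127336159 to 127338377, is known from activated lymphocytes, and it stood at 263 and 300.2 CPM in Lrig1+ and Lrig1- cells of set 1 and at 214 and 213 in set 2. Its log2 ratio was -0.19 in set 1 and 0.01 in set 2, the one case among the 10 in which the sets differed in sign. The fitted log2 fold change was -0.09 (95% interval -0.29 to 0.11, adjusted p = 0.496 in edgeR with the block). Dusp5, on chromosome 19 from 53529145 to 53541809, is selective for ERK, and it stood at 59.0 and 55.5 CPM in set 1 and at 42.9 and 39.2 in set 2. Its log2 fold change was 0.11 (95% interval -0.08 to 0.29, adjusted p = 0.358 with the block). Each set 2 library lay below both set 1 libraries for these 2 genes, so the set and not the group ordered their values. A GENCODE antisense gene shares 547 exonic bases with Dusp5 on the opposite strand and was not among the genes of the tables.

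Dusp6, on chromosome 10 from 99263231 to 99267489, encodes the cytoplasmic phosphatase that is selective for ERK and is widely used as a readout of ERK activity. Its levels were 55.3 and 41.9 CPM in Lrig1+ and Lrig1- cells of set 1, and 44.1 and 37.8 in set 2. The groups did not overlap, but the Lrig1+ library of set 2 was only slightly above the Lrig1- library of set 1. The log2 fold change with the block was 0.31 (SE 0.09, 95% interval 0.11 to 0.52, adjusted p = 0.0351 in edgeR's quasi-likelihood test), and it was called in 5 of the 6 fits with the block. Without the block the adjusted p was 0.9998.

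Dusp10 and Dusp16 encode the phosphatases that prefer JNK and p38, and they moved in opposite directions. Dusp10, on chromosome 1 from 184034381 to 184075636, stood at 65.2 CPM in Lrig1+ and 103 in Lrig1- cells of set 1, and at 46.8 and 79.4 in set 2. Both Lrig1+ libraries lay below both Lrig1- libraries, with a log2 ratio of -0.66 in set 1 and -0.76 in set 2. Its log2 fold change with the block was -0.71 (SE 0.07, adjusted p = 5.036e-04 in edgeR), and without the block -0.70 (SE 0.34, adjusted p = 0.9998). Dusp16, on chromosome 6 from 134715468 to 134807063, was far scarcer, at 6.71 and 4.11 CPM in set 1 and 8.03 and 5.63 in set 2. Its counts, 349 and 197 in set 1 and 461 and 304 in set 2, gave ratios of 1.63 (exact 95% interval 1.37 to 1.95, counting error only) and 1.43 (1.23 to 1.65). The log2 fold change of Dusp16 with the block was 0.61 (SE 0.16, adjusted p = 0.0296), called in 4 of the 6 fits with the block.

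Spry2 and Spred1 were not called in either fit. Spry2, on chromosome 14 from 105891947 to 105896819, encodes a Sprouty protein with the same role as Spry1, and it had the lowest FPKM of the 10 (a level scaled by transcript length) in each library but the Lrig1- library of set 2. Its counts were 30 and 55 in Lrig1+ and Lrig1- cells of set 1 and 45 and 111 in set 2, so it was lower in Lrig1+ cells in both sets, with ratios of 0.502 (exact 95% interval 0.311 to 0.798, counting error only) and 0.381 (0.263 to 0.544). The log2 fold change of Spry2 with the block was -1.20 (SE 0.38, 95% interval -2.09 to -0.32, adjusted p = 0.0526 in edgeR), and it was called in 2 of the 6 fits with the block. Spred1, on chromosome 2 from 117121071 to 117182279, encodes a protein that brings neurofibromin to the membrane to switch Ras off. It stood at 15.8 and 12.0 CPM in set 1 and 12.7 and 11.1 in set 2, with groups that did not overlap. Its log2 fold change with the block was 0.30 (95% interval 0.02 to 0.57, adjusted p = 0.102), and none of the 6 fits with the block called it.

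**Figure D2:**
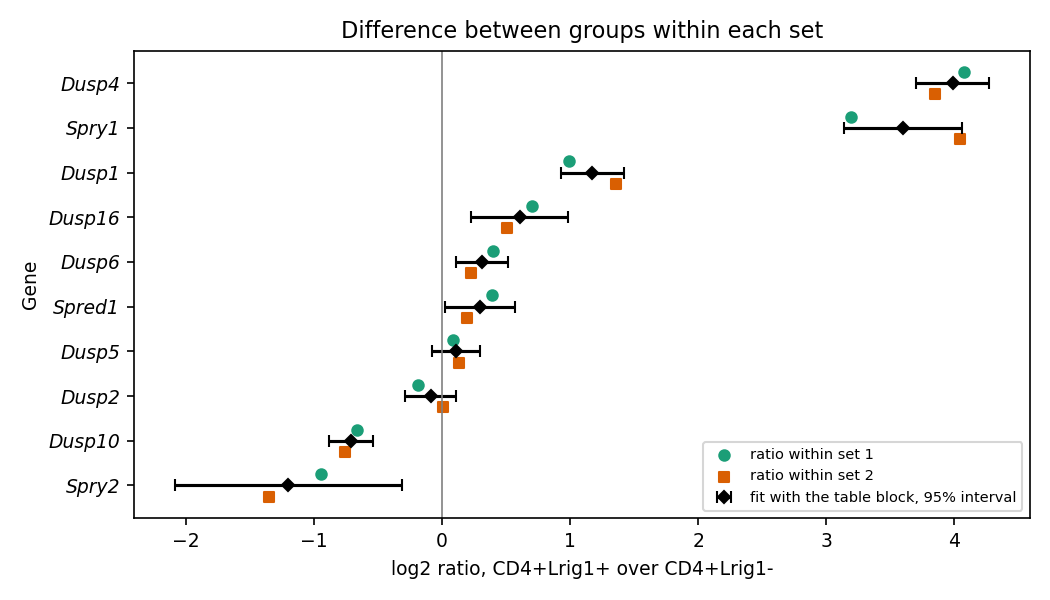
log2 ratio of Lrig1+ over Lrig1- cells within set 1 (green circles) and set 2 (orange squares), with the log2 fold change fitted with the table block (black diamonds) and its 95% interval, for the 10 genes in order of the fitted value. The values run from 3.99 for Dusp4 to -1.20 for Spry2, and the intervals of Dusp2 and Dusp5 hold 0.

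Across the 10 genes, 7 were higher in Lrig1+ cells in both sets and 2 were lower in both, against 36.5% and 41.3% of all genes tested. Because the 10 genes were chosen with earlier results of these data known, the shares in this paragraph only describe them. For 6 genes both Lrig1+ libraries lay above both Lrig1- libraries and for 2 both lay below, against 14.3% and 11.8% of all genes, and with 2 libraries per group an exact two-sided permutation test of 1 gene cannot give a p below 0.333. The median log2 fold change of the 10 genes was 0.30 with the block and 0.31 without it, beside -0.04 in both fits for all genes tested. The median was 0.40 in set 1 and 0.21 in set 2, and the 10 genes ranged from 3.99 to -1.20, so no single shift describes them.

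Per length, the 10 genes covered a wide range of levels, and their order differed between the groups. In FPKM, which the authors scaled by transcript length and library size, Dusp2 was the highest of the 10 in every library (111 to 178 FPKM) and Dusp1 the second (110 to 140 FPKM in Lrig1+ and 40.1 to 70.6 in Lrig1- cells). Dusp5 was the third in both Lrig1+ libraries (31.2 and 21.3 FPKM) and Dusp10 the fourth (22.5 and 15.1), and these 2 genes changed places in both Lrig1- libraries, where Dusp10 had 35.5 and 24.0 FPKM and Dusp5 had 29.4 and 18.2. Dusp4 (19.5 and 10.3 FPKM), Dusp6 (19.0 and 14.2) and Spry1 (18.7 and 14.6) came next in the Lrig1+ libraries, in an order that differed between the sets. In Lrig1- cells Dusp6 was the fifth, at 14.4 and 11.4 FPKM, whereas Dusp4 had 1.13 and 0.656 FPKM and Spry1 had 1.97 and 0.655. Spred1, at 1.47 to 2.50 FPKM, Dusp16, at 0.774 to 1.42, and Spry2, at 0.198 to 0.712, were low in all 4 libraries. In the Lrig1- library of set 2 Dusp4, Spry1 and Spry2 lay within 0.655 to 0.712 FPKM of each other's level, so their order there carries no weight.

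The tables list 21 transcripts for the 10 genes, and for 3 genes the transcript with the most counts was not the same in all 4 libraries. For Dusp16, the transcript NM_130447 held 99.4% and 100% of the estimated counts in the Lrig1+ libraries of set 1 and set 2, against 24.4% and 4.28% in the Lrig1- libraries. The Lrig1- counts lay instead on the predicted transcripts XM_030255591 (25.4% in set 1 and 95.7% in set 2) and XM_030255592 (50.3% and 0%). These transcripts have different 5′ ends on the minus strand of chromosome 6, at 134792628, 134791812 and 134807063 in the order named. For Spry1, NM_001305441 held 73.9% and 74.7% in the Lrig1+ libraries and 57.8% in the Lrig1- library of set 1, while all 119 counts of the Lrig1- library of set 2 were on XM_030252610, which starts at 37639291, upstream of the start of the other Spry1 transcripts. For Spry2, XM_006519016 held 56.7% and 70.9% in the Lrig1+ and Lrig1- libraries of set 1 and NM_011897 held 55.6% and 67.6% in those of set 2, so that its main transcript differed between sets and not between groups. The reads that transcripts share were divided among them by StringTie, which makes these shares estimates, and they were not tested. The counts used above were summed over the transcripts of each gene, and whether the division of reads moved these sums was not tested. A GENCODE gene on the opposite strand shares 710 exonic bases with Spry1 and was not among the genes of the tables.

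**Figure D3:**
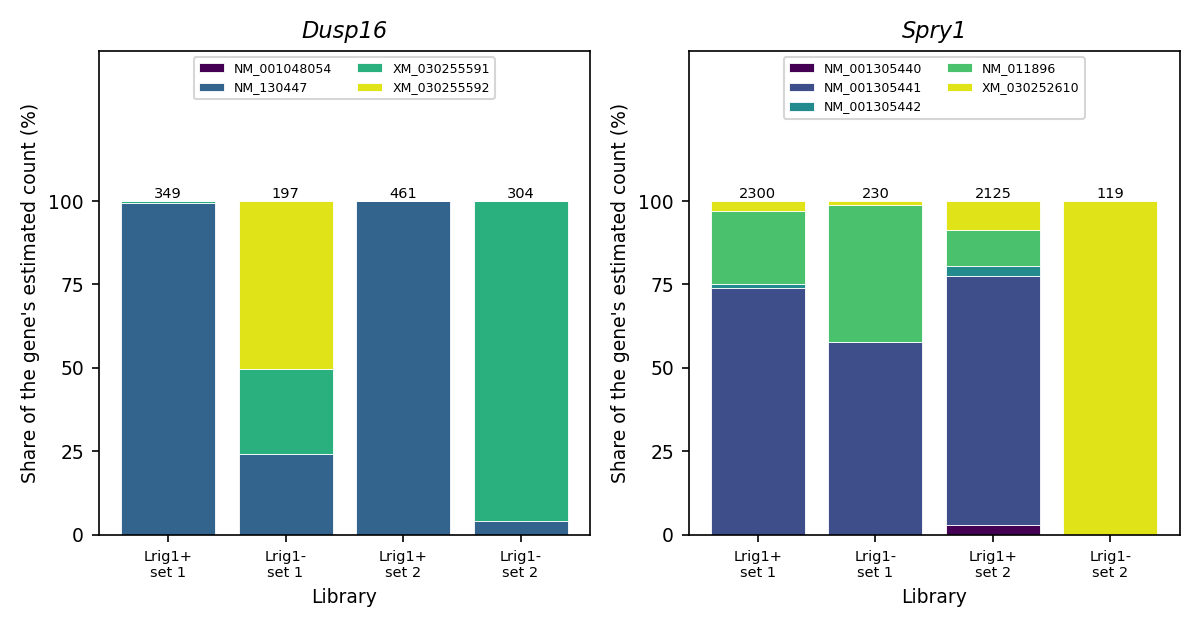
Share of the estimated count of Dusp16 (left) and Spry1 (right) on each RefSeq transcript, in percent, in the 4 libraries; the number above a bar is the gene's estimated count in that library. NM_130447 fills both Lrig1+ bars of Dusp16 (99.4% and 100%) and a small part of the Lrig1- bars (24.4% and 4.28%), and XM_030252610 fills the Lrig1- bar of Spry1 in set 2, a bar of 119 counts.

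Promoter sequence from RefSeq (GRCm38.p6) was available for 9 of the 10 genes, all but Dusp4. The windows run from 250 bases before the start of the gene to 50 after it. They were searched on both strands for the cAMP response element TGACGTCA, its core TGACG (which the full element contains), the AP-1 site TGANTCA, the ETS site CCGGAAG, the forkhead site TGTTTAC, the E-box CACGTG and the CArG box of serum response factor. The promoters of 3 genes are shown, 1 each of a gene that was higher, not called and lower in Lrig1+ cells, from base -250 to base -61 before the start, with matches in capitals. The Spry1 window is not shown because it lies inside the span of its longer transcript.
Dusp1 (minus strand, chr17:26508533-26508722): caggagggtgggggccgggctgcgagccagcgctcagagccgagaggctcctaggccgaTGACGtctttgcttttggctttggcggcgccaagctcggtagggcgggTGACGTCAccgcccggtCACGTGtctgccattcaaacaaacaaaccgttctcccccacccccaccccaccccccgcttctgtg
Dusp5 (plus strand, chr19:53528895-53529084): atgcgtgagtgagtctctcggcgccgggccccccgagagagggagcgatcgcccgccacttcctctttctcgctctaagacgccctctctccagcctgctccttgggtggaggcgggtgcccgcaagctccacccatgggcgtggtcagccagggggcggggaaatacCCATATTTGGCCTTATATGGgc
Dusp10 (plus strand, chr1:184034131-184034320): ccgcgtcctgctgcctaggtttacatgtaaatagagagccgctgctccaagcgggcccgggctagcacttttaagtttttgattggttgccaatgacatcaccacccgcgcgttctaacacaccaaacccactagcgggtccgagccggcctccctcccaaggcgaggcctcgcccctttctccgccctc
Dusp1, which was higher, was the only one of the 9 with the full cAMP response element, at base -143, an element that 1.79% of the 32851 promoters held, and it had an E-box at base -126. The E-box was in 2 of the 9 promoters (Dusp1 and Dusp2) and in 7.15% of all, and the core was in 4 (Dusp1, Dusp2, Dusp5 and Dusp16) and in 20.8% of all. Dusp5, which was not called, held a pair of adjacent CArG boxes at bases -82 and -72, and 1.63% of all promoters held at least 1. None of the 9 windows held the AP-1 (7.81% of all promoters), ETS (8.86%) or forkhead (3.65%) letters, and the Dusp10 window held none of the searched motifs. A match is a run of letters and says nothing of what binds there.

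The other phosphatase, Sprouty and Spred genes did not move as a group. Of 21 further dual specificity phosphatase genes, 16 were tested, and with the block 2 were called higher and 3 lower, with a median log2 fold change of 0.09. Dusp14, a small phosphatase without a MAPK docking domain, stood at 2.52 and 0.334 CPM in Lrig1+ and Lrig1- cells of set 1 and at 6.34 and 0.426 in set 2 (log2 fold change 3.45, SE 0.36, adjusted p = 5.094e-04 with edgeR). Ssh1, a cofilin phosphatase, was also higher (log2 fold change 0.69), while its relative Ssh2 (-0.53), the ERK phosphatase Dusp7 (-0.73) and the RNA phosphatase Dusp11 (-0.38, named after its value was seen) were lower. Of the other Sprouty and Spred genes 3 of 4 were tested and none was called. Spred2, with levels of 43.9 and 48.3 CPM in set 1 and 31.3 and 39.0 in set 2, had a log2 fold change of -0.22 (95% interval -0.43 to -0.02, adjusted p = 0.105 with edgeR and the block).

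Among 29 genes of the ERK cascade, all tested, 1 was called higher and 11 lower with the block, and the median log2 fold change was -0.09. Ksr1, a scaffold of the cascade, was the one that was higher, at 99.97 and 47.0 CPM in Lrig1+ and Lrig1- cells of set 1 and 42.9 and 21.5 in set 2 (log2 fold change 1.04). The 11 that were lower included exchange factors that load Ras or Rap with GTP and, on the opposite side, the Ras GTPase-activating genes Rasa2 (log2 fold change -0.37), Rasa3 (-0.58) and Rasal3 (-0.39), which were named after their values were seen. Rasgrp2, an exchange factor, stood at 304 and 571 CPM in set 1 and 107 and 226 in set 2 (log2 fold change -0.997), and Rasgrp3 (-1.35) and Sos1 (-0.62) were lower too. The exchange factors Sos2 (-0.09) and Rasgrp4 (0.45), also named after their values were seen, were not called.

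The JNK and p38 cascade had 20 of 22 genes tested, with 9 called higher, 2 lower and a median log2 fold change of 0.12. Gadd45b, a stress-induced activator of the p38 and JNK pathway, stood at 40.0 and 13.3 CPM in set 1 and 32.5 and 10.1 in set 2 (log2 fold change 1.64, SE 0.10). Its relative Gadd45g was higher by 1.74 on the log2 scale, and the kinase genes Map3k8 and Map3k5 of this list by 1.19 and 0.80. The 2 that were lower, named after their values were seen, were Mapk14, which encodes p38 alpha (log2 fold change -0.40), and the kinase gene Map3k1 (-0.38).

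The ERK-responsive and immediate early genes, of which 22 of 23 were tested, were called higher in 9 cases and lower in 4, with a median log2 fold change of 0.09. Egr2, a transcription factor induced by T cell receptor signalling, stood at 56.2 and 16.9 CPM in set 1 and 60.6 and 16.4 in set 2 (log2 fold change 1.81, SE 0.09). The ETS family genes Etv5 (1.39) and Elk3 (0.71) were higher. Ccnd1, which encodes cyclin D1, was at 2.13 and 16.9 CPM in set 1 and 3.29 and 12.5 in set 2, and was lower (-2.43). The other 3 that were lower, named after their values were seen, were Fosl2 (-0.69), Jun (-0.45) and Ier2 (-0.29). The remaining 9 were not called, among them Egr1 (0.15), Fos (-0.02) and Junb (-0.06), also named after their values were seen. All of these list calls are from the fit with the block, in which 14.6% of all genes were called higher and 12.8% lower, and the fit without it called none of the list genes.

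**Figure D4:**
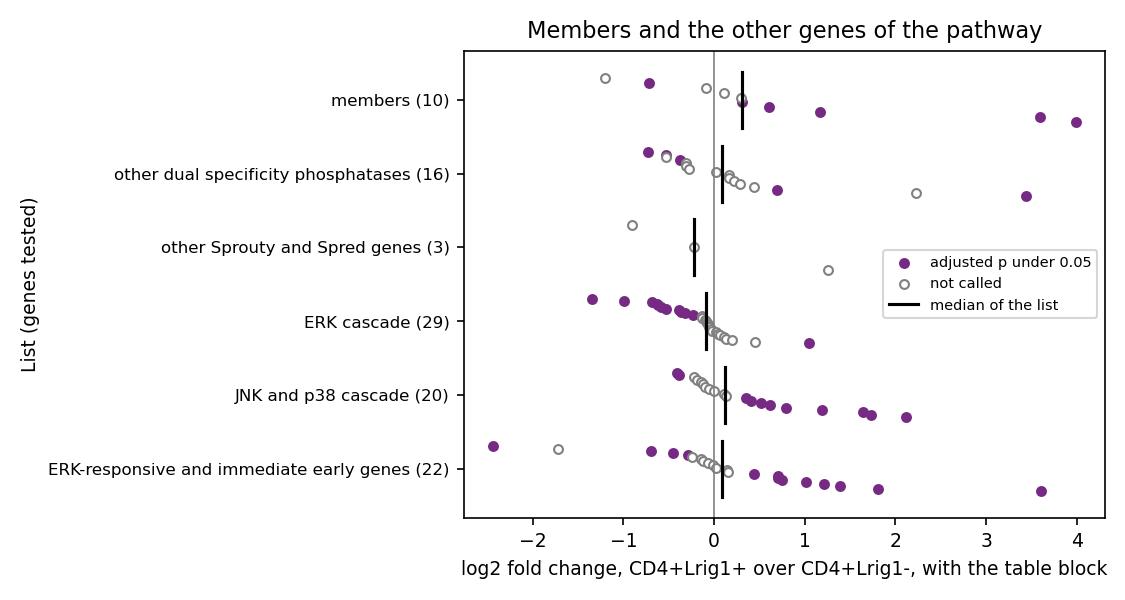
log2 fold change of Lrig1+ over Lrig1- cells, fitted with the table block, for the 10 genes (members) and the tested genes of 5 further lists; 1 point is 1 gene, purple where the adjusted p was under 0.05, and black bars are medians. The medians lie between -0.22 and 0.30, and the point at 3.60 among the ERK-responsive genes is Etv4, which had at most 0.540 CPM in any library and 0 in one of them.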

How the data were processed

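RNA of the sorted cells went into stranded mRNA libraries, read from both ends. Per the submitters' processing notes, Trimmomatic 0.38, HISAT2 2.1.0, Bowtie2 2.3.4.1 and StringTie 2.1.3b were used, with GRCm38. The deposited estimated counts and FPKM values were made by the authors per RefSeq transcript with StringTie, and the deposited TPM values were not used here. A table with 6 columns of per-sample values that do not name the group was left out.

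Estimated counts, whole numbers as deposited, were summed per gene symbol. In R 4.3.3, edgeR 4.0.16 was applied with filterByExpr, TMM and the quasi-likelihood test, without covariates and with the table as a term. Genes with a Benjamini-Hochberg adjusted p under 0.05 were called. A prior count of 2 was used in the log2 ratios of each set. SEs were the log2 fold change over the root of F, and intervals are 95% intervals. Intervals of count ratios are exact (Clopper-Pearson) and cover counting error only. The alternatives were DESeq2 1.42.0, limma 3.58.1 on log2 FPKM with 1 or 0.1 added, other filters, removal of immunoglobulin genes and leaving out each library. The scripts were tested on simulated counts. The named genes were the 10 members, up to 4 genes per list with the smallest p with the block and a mean count of at least 50, and Lrig1 and Foxp3. Some marker genes are not reported here. The members and lists were chosen with earlier results of these data known. Python 3.11.15 was used.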

Additional observations from a re-analysis of the deposited data

How the results depend on the processing

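The number of called genes depended on the fit. Without covariates, edgeR called 0 genes and 0 of the 10 members in the fit reported. It also called 0 of both under DESeq2's size factors, both other filters and the removal of immunoglobulin genes. The test of limma on log2 FPKM, with 1 or 0.1 added and no covariates, called 0 genes and 0 members too. DESeq2's Wald test called 310 genes and 2 members (Dusp4 and Spry1). The table block called 4414 genes and 6 members with edgeR, and 3817 genes and 4 members with the Wald test. Combinations of the block with another choice, added after seeing the data, called 4596 genes and 6 members with DESeq2's size factors, 3093 and 5 with limma on log2(FPKM + 1), 5284 and 7 with at least 10 counts in every library, and 4568 and 7 with immunoglobulin genes removed. The cause was not tested. Leaving out each library in turn, without the block, called 2 to 90 genes and 0 to 2 members, and gave a median log2 fold change of the members of 0.17 to 0.45. The lone library of a group was then assumed to vary like the others.

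No paired analysis was possible by replicate number, because the columns carry none; the table block is the nearest fit. Leaving out 1 library moved Dusp2 over -0.33 to 0.21 on the log2 scale, with the sign reversed at 0.21 without the Lrig1- library of set 1 and 0.04 without the Lrig1+ library of set 2. It moved Dusp5 over -0.12 to 0.42, with the sign reversed at -0.12 without the Lrig1+ library of set 1 or the Lrig1- library of set 2. The other 8 members kept their direction in every fit run. With limma on log2(FPKM + 1), where the pseudocount shrinks low values, the log2 fold change of Spry2 was -0.31. With the block, Dusp16 was not called by that fit (adjusted p = 0.0794), and neither Dusp16 (adjusted p = 0.148) nor Dusp6 (adjusted p = 0.0703) was called by DESeq2's Wald test. Spry2 had 30 to 111 counts a library, so only a large difference could be called.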
